A study of Mus musculus with 6 samples.

Results

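Rasgef1a, Rasgef1b and Rasgef1c encode a small family of guanine nucleotide exchange factors, and their transcripts were followed in RNA-seq of the embryonic medial ganglionic eminence (MGE), a source of many cortical interneurons. The 3 genes were picked by symbol from a table of 34745 genes, and the family was chosen because Rasgef1b differs between the genotypes in these same data. The difference between genotypes in the 3 members is therefore described here without a test. The tissue came from mouse embryos at embryonic day 12.5 and gave 3 Sp9 null (Sp9-/-) and 3 wild type libraries. The wild type embryos were littermates, and both genotypes carry the same mixed CD1, 129S6 and C57BL/6J background. The labels describe neither the Sp9 allele nor whether a library pools several embryos, so the spread between libraries may be partly technical.

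A Ras-type GTPase is active when bound to GTP and inactive when bound to GDP. Exchange factors of the CDC25 type promote release of GDP and so switch the GTPase on, and GTPase-activating proteins switch it off. In biochemical work on the human proteins, RASGEF1A and RASGEF1B act on Rap2 GTPases, which signal through kinases such as TNIK to the cytoskeleton and to cell adhesion. Rasgef1b is known in mouse macrophages as a gene induced by Toll-like receptor ligands.

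The 6 libraries held 6826447 to 10979280 counts. Sp9 itself, which encodes an Sp-family zinc finger protein, had 89, 116 and 118 counts in the Sp9 null libraries and 1939, 2700 and 1870 counts in the wild type libraries, so the labels and the targeted gene matched in all 6. A call means a Benjamini-Hochberg adjusted p under 0.05 over all 14929 genes tested by edgeR's quasi-likelihood test, fitted without or with the replicate number as a block. The MGE determinant gene Nkx2-1 was counted at 895 to 945 CPM (counts scaled to a library of 1000000) in Sp9 null and 800 to 927 CPM in wild type libraries. Of the 5 MGE markers, edgeR without the block called 0, against 0.147% of all tested genes. It gave 3 of them an unadjusted p under 0.05, against 5.91% of all tested genes. DESeq2 called 2 of the 5, and 84 of all 14929 genes. In the blocked fit Lhx6 (log2 fold change -0.45) and Gad1 (-0.80) fell, Dlx2 (0.39) rose, and Nkx2-1 and Lhx8 were not called. Of all tested genes 1.78% fell and 2.22% rose in that fit. Replicate 2 of both genotypes stood apart from the other libraries on the first principal component, which held 51.8% of the variance.

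The 3 members lie on 3 chromosomes, none of them chromosome 2, which carries Sp9. In the deposited table on GRCm38, Rasgef1b (ENSMUSG00000029333) spans 99217426 to 99252927 of chromosome 5, Rasgef1a (ENSMUSG00000030134) spans 118011438 to 118091546 of chromosome 6 and Rasgef1c (ENSMUSG00000020374) spans 49901835 to 49980994 of chromosome 11. In GENCODE, Rasgef1b is read from the minus strand and the other members from the plus strand. The longest coding transcript inside each deposited span has 14 exons and 1419 coding bases without the stop codon for Rasgef1b, 14 exons and 1407 for Rasgef1c, and 13 exons and 1494 for Rasgef1a.

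The coding sequences are related but separable. Aligned in pairs, Rasgef1b and Rasgef1c were identical at 70.2% of 1388 aligned bases, Rasgef1b and Rasgef1a at 65.7% of 1415, and Rasgef1a and Rasgef1c at 66.8% of 1394. Between their transcripts inside the deposited spans, compared in the same orientation, the longest identical run was 21 bases, for Rasgef1b and Rasgef1c. The most alike ungapped 60 coding bases of the family are shown to let the members be told apart by eye, with bases that differ from Rasgef1b in capitals. They are coding bases 859 to 918 of Rasgef1b, 934 to 993 of Rasgef1a and 847 to 906 of Rasgef1c, and 49 of the 60 are shared by all 3.
Rasgef1b: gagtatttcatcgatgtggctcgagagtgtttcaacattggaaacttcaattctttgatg
Rasgef1a: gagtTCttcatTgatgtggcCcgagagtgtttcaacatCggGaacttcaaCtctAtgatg
Rasgef1c: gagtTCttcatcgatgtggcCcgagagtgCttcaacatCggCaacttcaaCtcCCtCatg
Even in this stretch Rasgef1a differed from Rasgef1b at 8 bases and Rasgef1c differed from it at 10. The labels give no read length. In the same orientation, a read longer than 21 bases cannot match any pair of these 3 transcripts perfectly along its whole length.

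The bases before the Rasgef1b start are shown because this is the member whose transcript level differed between genotypes and because Sp9 belongs to the Sp family, whose members are known to bind GC boxes. The RefSeq window (GRCm38.p6, minus strand) is chr5:99252928-99253177, the 250 bases that end just before the annotated first base. It is printed from 5′ to 3′ along the gene, with GGGCGG on either strand in capitals.
Rasgef1b upstream: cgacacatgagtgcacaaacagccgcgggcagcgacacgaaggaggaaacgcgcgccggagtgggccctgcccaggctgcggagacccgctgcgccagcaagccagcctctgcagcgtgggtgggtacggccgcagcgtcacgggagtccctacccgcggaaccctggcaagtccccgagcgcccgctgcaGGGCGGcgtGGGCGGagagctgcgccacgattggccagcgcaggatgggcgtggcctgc
The window held 2 matches, beginning 59 and 50 bases before the start, both on the strand shown. They do not overlap. The motif occurred at least 1 time in 32.7% of 32851 such windows genome-wide, and 16.7% held as many or more. The windows before the starts of the other members also held it, with 3 and 4 matches at the pair of Rasgef1a starts and 1 and 3 matches at those of Rasgef1c. The GC content was 72.4% at Rasgef1b, against a median of 52.4% over all windows. A match describes the letters and shows no binding.

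Rasgef1b was the only member with a substantial level. It had 247, 379 and 361 counts in Sp9 null replicates 1, 2 and 3, against 196, 180 and 181 counts in wild type replicates 1, 2 and 3. Scaled to depth these were 36.2, 34.5 and 38.3 CPM in the Sp9 null libraries and 20.6, 16.5 and 18.3 CPM in the wild type libraries. The background rate of calls upward was 0.0469% of tested genes without the block and 2.22% with it, and no call is read for the members. All 3 Sp9 null libraries lay above all 3 wild type libraries, and replicate 2 was the lowest of its genotype in both. Such a separation in the upward direction was found in 4.95% of all tested genes, and nothing is read from it here, since the gene was chosen for this difference.

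The Rasgef1b mean was 36.3 ± 1.89 CPM in Sp9 null and 18.4 ± 2.04 CPM in wild type libraries (SD, n = 3 each), a fitted log2 fold change of 1.001. Of the tested genes 0.449% had a log2 fold change of 1 or more. The lowest Sp9 null library was 1.68-fold above the highest wild type library, and the highest Sp9 null library was 2.32-fold above the lowest wild type library. Within a replicate number the ratio of Sp9 null over wild type was 1.76 for number 1, 2.093 for number 2 and 2.097 for number 3. With each of the 6 libraries left out in turn the log2 fold change stayed between 0.93 and 1.09. This range is a description only, since the gene was chosen for this difference. In bulk tissue, a different number of cells that transcribe the gene and a different amount of its RNA per cell cannot be told apart.

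**Figure D1:**
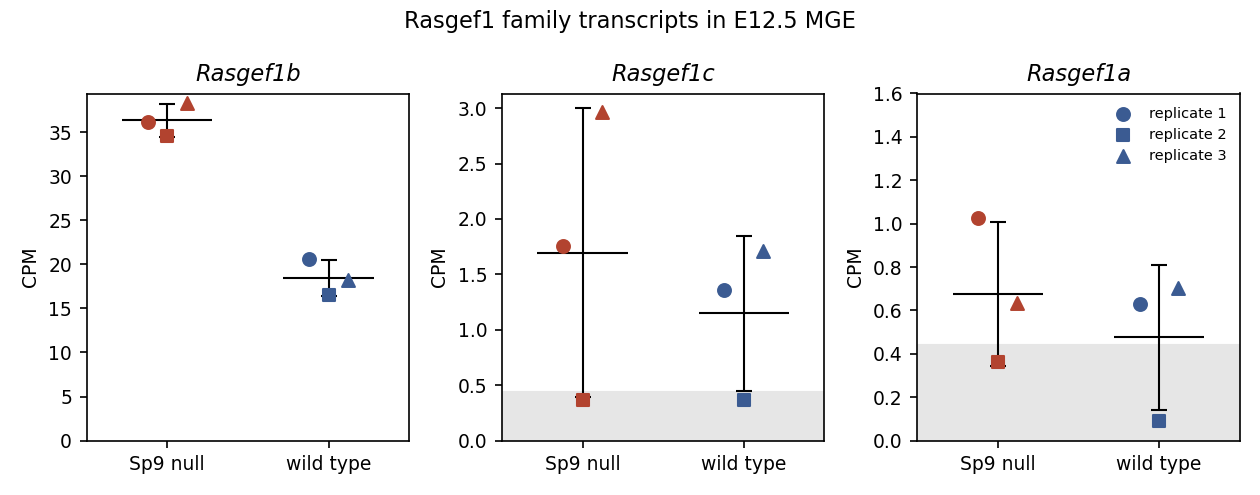
Depth-scaled counts (CPM, linear axes from 0) of the 3 Rasgef1 genes in each library, Sp9 null left and wild type right, with symbols for the replicate number, bars at the mean and whiskers of 1 SD. The grey band marks values up to 0.440 CPM, the level of 3 counts in the shallowest library. Rasgef1b separates the genotypes, at 34.5 to 38.3 against 16.5 to 20.6 CPM, while the groups overlap for Rasgef1c and Rasgef1a.

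Rasgef1c was detected at a low level and overlapped between genotypes. It had 12, 4 and 28 counts in Sp9 null replicates 1, 2 and 3, and 13, 4 and 17 counts in the wild type replicates. In CPM it was at 1.76, 0.364 and 2.97 in Sp9 null libraries and at 1.36, 0.367 and 1.71 in wild type libraries. The mean was 1.70 ± 1.30 CPM in Sp9 null and 1.15 ± 0.699 CPM in wild type libraries (SD, n = 3 each), a difference smaller than the spread within either genotype. Summed over libraries and scaled to depth, the ratio of Sp9 null over wild type was 1.44, with a 95% exact Clopper-Pearson interval of 0.901 to 2.33 that covers counting error only. Within a replicate number the ratio was 1.289 for number 1, 0.994 for number 2 and 1.732 for number 3. The fitted log2 fold change was 0.57. It was -0.20 without Sp9 null replicate 3 alone, and 0.26 with the block and without both libraries of number 3.

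Rasgef1a was close to the limit of detection and did not pass the expression filter. It had 7, 4 and 6 counts in Sp9 null replicates 1, 2 and 3, and 6, 1 and 7 counts in the wild type replicates. A floor of 3 counts corresponded to between 0.273 and 0.440 CPM, and wild type replicate 2 was below it. The mean was 0.675 ± 0.332 CPM in Sp9 null and 0.476 ± 0.335 CPM in wild type libraries (SD, n = 3 each). The depth-scaled ratio was 1.35 with a 95% exact interval of 0.628 to 2.97, so a change of the size seen in Rasgef1b was not detectable as such at this depth, nor was its absence.

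Set on the length-scaled FPKM values (fragments per kilobase of gene, scaled to library depth), the order of the members was Rasgef1b, Rasgef1c, Rasgef1a. Rasgef1b was at 9.44 ± 0.490 FPKM in Sp9 null and 4.79 ± 0.529 FPKM in wild type libraries (SD, n = 3 each). The wild type level was above that of 47.6% of tested genes. Rasgef1c was at 0.331 ± 0.254 FPKM in Sp9 null and 0.224 ± 0.136 FPKM in wild type libraries, and Rasgef1a at 0.135 ± 0.0662 and 0.0948 ± 0.0667 FPKM (SD, n = 3 each). Rasgef1b exceeded each of the others in every library. Its FPKM was 27.4, 126.2 and 17.2 times that of Rasgef1c in Sp9 null replicates 1, 2 and 3, and 20.1, 59.9 and 14.2 times in the wild type replicates, so the ratio varied with the low Rasgef1c value of replicate 2. Rasgef1c and Rasgef1a overlapped, with 0.0711 to 0.579 FPKM for Rasgef1c and 0.0183 to 0.204 FPKM for Rasgef1a over the 6 libraries. Rasgef1b thus made up 93.4% to 98.4% of the summed family FPKM in Sp9 null libraries and 90.9% to 98.0% in wild type libraries.

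**Figure D2:**
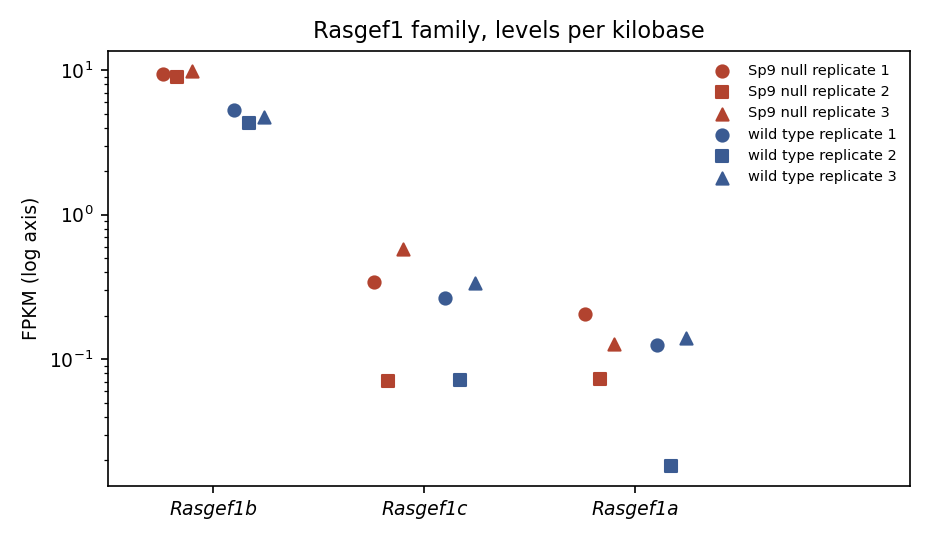
FPKM of each member in each library on a log axis, Sp9 null in red to the left of wild type in blue, with symbols for the replicate number. Rasgef1b sits between 4.29 and 9.95 FPKM in all 6 libraries, above every value of Rasgef1c and Rasgef1a, and replicate 2 gives the lowest Rasgef1c and Rasgef1a values in both genotypes.

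The level of Rasgef1c differed more between replicate numbers than between genotypes. Replicate 2 was the lowest of its genotype for all 3 members in both genotypes, a pattern that 28.4% of tested genes showed. For Rasgef1c, replicate 2 was at 0.154 times the mean of replicates 1 and 3 in Sp9 null and 0.238 times in wild type libraries. For Rasgef1b the same ratios were 0.927 in Sp9 null and 0.85 in wild type libraries. For Rasgef1a they were 0.439 and 0.137, from 4 counts and 1 count in the replicate 2 libraries. Some markers of neighbouring tissue were also lowest in replicate 2. The 6 cortical excitatory neuron markers summed to 27.0, 1.73 and 47.6 CPM in Sp9 null replicates 1, 2 and 3 and to 16.6, 1.37 and 23.5 CPM in the wild type replicates. Tbr1 made up most of that sum outside replicate 2, at 23.3, 0.0911 and 41.9 CPM in the Sp9 null replicates and 14.8, 0.641 and 20.2 CPM in the wild type replicates. Eomes and Bhlhe22 were also lowest in replicate 2 of both genotypes, whereas Slc17a7, Neurod2 and Neurod6, all under 1 CPM, did not show this in both, and Neurod6 was at 0 in all wild type libraries. Tbr1, 1 of the 2 tested cortical markers, rose with the block, as did 2.22% of all tested genes. It was not called without the block or by DESeq2 with the block. The 4 hypothalamus markers summed to 4.25, 0.182 and 5.73 CPM in Sp9 null and 2.94, 0.458 and 3.43 CPM in wild type libraries. Rax was at 0 in all Sp9 null libraries and Nr5a1 in all wild type libraries. Their part in the Rasgef1c values was not tested.

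**Figure D3:**
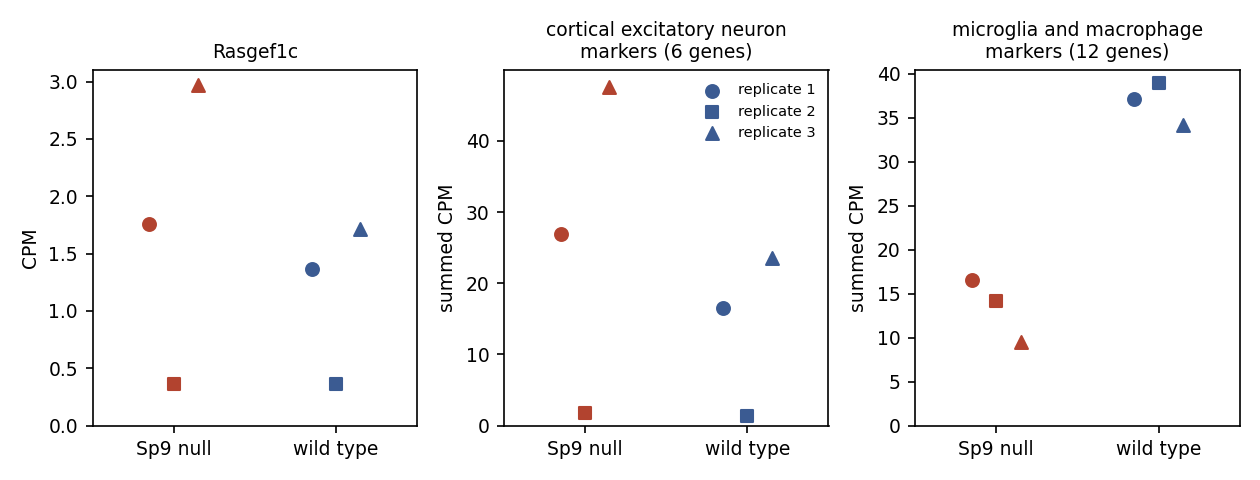
Rasgef1c (CPM) beside the summed CPM of 6 cortical excitatory neuron markers and of 12 microglia and macrophage markers in each library, Sp9 null left and wild type right, with symbols for the replicate number and axes from 0. Rasgef1c and the cortical sum, most of it Tbr1 outside replicate 2, are lowest in replicate 2 of both genotypes, at 0.364 and 0.367 CPM and at 1.73 and 1.37 CPM, whereas the microglia sums split by genotype.

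Genes with the pattern over libraries most like that of each member were named by Pearson correlation of log2 CPM over the 6 libraries, as a description. For Rasgef1b the leading 5 of the tested genes were Timp3, a metalloproteinase inhibitor gene (r = 0.991), Cd2ap, an adaptor protein gene (0.988), the predicted gene Gm21897 (0.988), Tmed5, a gene of vesicle trafficking (0.988), and Dtwd1 (0.988). All 5 shared the split by genotype with Rasgef1b, which follows from their choice by likeness to it. Their fitted log2 fold changes ran from 0.15 for Tmed5 to 1.38 for Gm21897. For Rasgef1c the leading 5 were Nova1, a neuronal splicing factor gene (r = 0.9997), Zfhx3 (0.9990) and Zfhx4 (0.997), both zinc finger homeobox genes, the long non-coding RNA Snhg11 (0.9990) and Sobp (0.996). All 5 were lowest in replicate 2 of each genotype, which likewise follows from their choice by likeness to Rasgef1c. Zfhx4 was at 125, 36.3 and 185.9 CPM in Sp9 null replicates 1, 2 and 3 and 103, 42.0 and 119 CPM in the wild type replicates. With 6 libraries and 14929 genes many genes reach a high r, so these are the nearest patterns and no more.

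Other cell types that could hold Rasgef1b transcripts were followed by marker lists. The 12 microglia and macrophage markers summed to 9.54 to 16.6 CPM in Sp9 null and 34.2 to 38.9 CPM in wild type libraries, and none was at 0 throughout a genotype. Of the 9 tested markers 0 were called without the block and 7 had an unadjusted p under 0.05, a share that was 5.91% of all tested genes. With the block 6 fell, against 1.78% of all tested genes. DESeq2 called 3 without the block, against 84 of all 14929 genes, and 3 with the block, against 163. By limma 1 was called with a pseudocount of 0.1 and 0 with 1, against 38 and 36 of all tested genes. The genotypes did not overlap in CPM for P2ry12, Cx3cr1, Csf1r, Aif1, C1qb, C1qc and Fcrls. Such a separation, in either direction, was found in 13.0% of all tested genes. The genotypes overlapped for Tmem119, C1qa, Trem2, Mrc1 and Ptprc, so the list did not move as a whole. The part of these cells in the Rasgef1b values was not tested. P2ry12, a purinergic receptor gene, was at 0.617 CPM in Sp9 null and 5.61 CPM in wild type libraries on average. The 7 endothelial markers did not differ by any call and summed to 125 to 144 CPM in Sp9 null and 134 to 149 CPM in wild type libraries, with 0 unadjusted p under 0.05 in either edgeR fit and 0 calls by DESeq2 or limma.

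Of the 8 markers of the adjacent lateral ganglionic eminence and of striatum, 5 rose with the block, in the direction of the Rasgef1b difference. The 8 summed to 467 to 509 CPM in Sp9 null and 406 to 438 CPM in wild type libraries, without overlap, and none was at 0 throughout a genotype. Of the 8, 0 were called without the block, 3 had an unadjusted p under 0.05, and DESeq2 and limma called 0. The 5 that rose with the block were Six3, Meis1, Meis2, Foxp1 and Zfp521, against 2.22% of all tested genes, and DESeq2 with the block called 0. Isl1, at a log2 fold change of 0.07, Ebf1, at -0.34, and Gsx2, at -0.09, were not called in either fit. The largest log2 fold change of the 8 without the block was 0.47, for Six3. Their part in the Rasgef1b difference was not tested. The 7 erythroid markers summed to 798 to 1200.0 CPM in Sp9 null and 785 to 1184 CPM in wild type libraries and were highest in replicate 2 of both genotypes. Of these 7, 0 were called without the block, with 1 unadjusted p under 0.05. With the block Hba-x rose, against 2.22% of all tested genes. In that fit 3 of the 7 had an unadjusted p under 0.05, against 17.2% of all tested genes. DESeq2 called 0 without the block and 1 with it, and limma called 0.

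None of the genes around the members was called. Of 61 genes within 500 kb of a member, 29 were tested, 14 beside Rasgef1a, 13 beside Rasgef1c and only 2 beside Rasgef1b. The counts thus say little about the surroundings of Rasgef1b. Of the 29, 0 were called in either edgeR fit or by DESeq2 or limma. An unadjusted p under 0.05 was reached by 1 gene without the block and 2 with it. The share of all tested genes with an unadjusted p under 0.05 was 5.91% without the block and 17.2% with it, so these counts are not above the background. The background share of called genes was 0.147% without the block and 4.0% with it. The 1 gene without the block was Gm43252, a predicted non-coding gene at 99274095 to 99279284 of chromosome 5. This is 21.2 kb beyond the start of Rasgef1b in the deposited table. GENCODE M21 gives Rasgef1b a longer span, from 99217426 to 99729065, and Gm43252 lies inside that span. It is thus a separate neighbour only by the deposited coordinates. Gm43252 is described here by its own counts. It had 16, 23 and 24 counts in the Sp9 null replicates and 11, 12 and 9 counts in the wild type replicates. All Sp9 null libraries lay above all wild type libraries, as in 4.95% of all tested genes. Gm43252 was at 2.33 ± 0.226 CPM in Sp9 null and 1.05 ± 0.129 CPM in wild type libraries (SD, n = 3 each). With a log2 fold change of 1.15 and an SE of 0.31, it did not pass in edgeR (adjusted p = 0.517, and 0.0819 with the block).

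On the other side of Rasgef1b the nearest tested gene was Prkg2, a cyclic GMP-dependent kinase gene 180.1 kb away. Its log2 fold change was 0.04 (SE 0.54). The nearest tested neighbours of Rasgef1a were Hnrnpf, an RNA-binding protein gene, at -0.03, and Csgalnact2, a chondroitin synthesis gene, at 0.18. Those of Rasgef1c were Mapk9, a JNK kinase gene, at 0.12, and Rnf130, a ubiquitin ligase gene, at 0.15. None of these 5 was called in either fit.

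The annotation of Rasgef1b differs between the deposited table and later GENCODE. In the table the transcription unit A930011G23Rik (ENSMUSG00000089809) begins 44.3 kb beyond the Rasgef1b start and spans 431822 bases. GENCODE M21 joins the units under that identifier as Rasgef1b, from 99217426 to 99729065, with 10 transcripts of which 4 lie inside the deposited Rasgef1b span. A930011G23Rik had 1, 2 and 6 counts in the Sp9 null replicates and 1, 2 and 2 counts in the wild type replicates. It was under the floor of 3 counts in every library but Sp9 null replicate 3, so few reads were assigned to the upstream unit.

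Outside the family, few genes of the Rap and Ras pathway were called. The pathway lists hold 59 genes, of which 55 were tested. Without the block 0 were called, with 1 unadjusted p under 0.05, and DESeq2 and limma also called 0. With the block 10 had an unadjusted p under 0.05, and 2 rose and 0 fell, against 2.22% and 1.78% of all tested genes, and 2 of 55 is near that background. The median log2 fold change was 0.01 over the 55 genes and -0.005 over all tested genes. The groups did not overlap in CPM for 4 of the 55, whereas 13.0% of all tested genes showed such a separation.

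**Figure D4:**
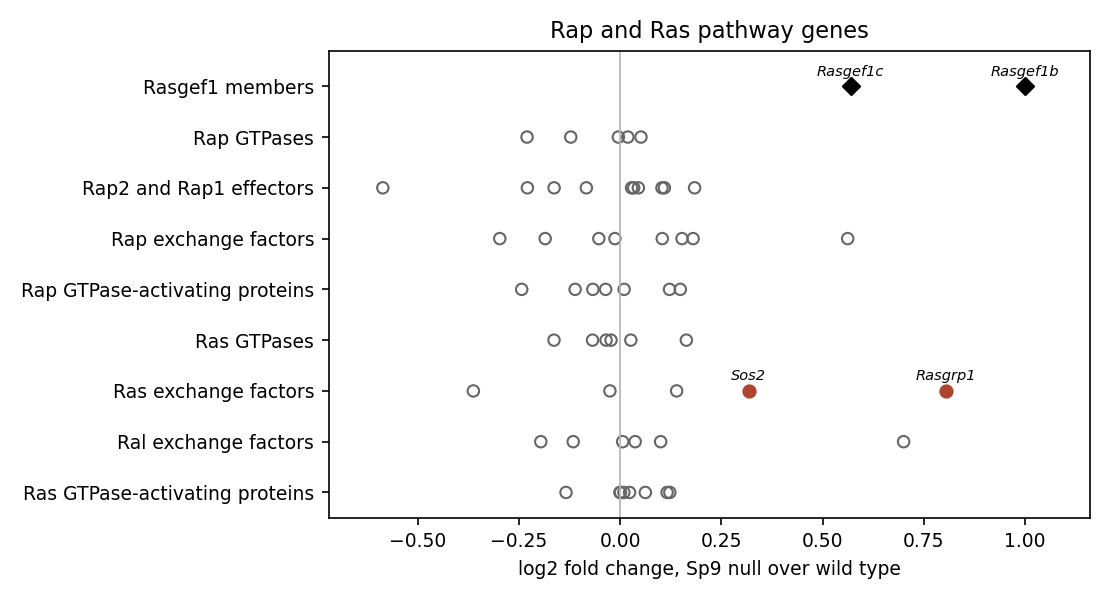
Log2 fold change of Sp9 null over wild type (fit without the block) for the 55 tested Rap and Ras pathway genes by role, with Rasgef1b and Rasgef1c as black diamonds on top. Filled red points are the 2 genes called with the replicate block, Sos2 at 0.32 and Rasgrp1 at 0.80, and open points are genes not called in either fit. Most genes lie close to 0.

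Of the 5 Rap GTPase genes, which include the Rap2 genes, 0 were called in either fit, with 0 unadjusted p under 0.05 without the block and 1 with it. Rap1b, the most abundant, was at 50.4 ± 1.75 FPKM in Sp9 null and 50.5 ± 0.743 FPKM in wild type libraries (SD, n = 3 each). Rap2b had the largest difference, with 38.4, 30.1 and 37.2 CPM in the Sp9 null replicates and 41.3, 39.6 and 44.6 CPM in the wild type replicates. All Sp9 null libraries lay below all wild type libraries, at a log2 fold change of -0.23 with an SE of 0.11 (edgeR adjusted p = 0.882, and 0.157 with the block). Rap2a and Rap2c, named here after their values were seen because they complete the Rap2 group, stood at -0.12 (SE 0.12) for Rap2a and 0.05 (SE 0.10) for Rap2c on the log2 scale and were not called.

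Proteins that bind active Rap were represented by 10 genes, with 0 calls in either fit and 1 unadjusted p under 0.05, with the block. Map4k4, a kinase gene of the same family as Tnik and Mink1, was the most abundant, at 65.6 ± 2.96 FPKM in Sp9 null and 65.1 ± 2.96 FPKM in wild type libraries (SD, n = 3 each). The largest difference was that of Apbb1ip, an adaptor gene active in leukocytes, with a log2 fold change of -0.59 (SE 0.43) at 0.742 to 1.76 CPM in Sp9 null and 1.31 to 2.52 CPM in wild type libraries. Those ranges overlapped.

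The other Rap regulators likewise gave 0 calls in either fit, among 8 exchange factor and 7 GTPase-activating protein genes, with 2 and 0 unadjusted p under 0.05 with the block and none without it. Rapgef1, the most abundant Rap exchange factor gene, had a log2 fold change of -0.05. Rapgef4, which encodes a cAMP-dependent exchange factor, had the largest difference, at 0.56 (SE 0.31, edgeR adjusted p = 0.897, and 0.224 with the block). Sipa1l2, the most abundant of the GTPase-activating protein genes, had -0.04 and Rap1gap -0.24 (SE 0.23).

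Among 7 Ras exchange factor genes, 5 were tested and 2 rose with the block, Sos2 and Rasgrp1. Sos2, which links receptor tyrosine kinases to Ras, was at 65.2, 66.8 and 63.2 CPM in the Sp9 null replicates and 50.7, 53.1 and 55.3 CPM in the wild type replicates. The Sp9 null libraries lay above all wild type libraries. The log2 fold change was 0.32 (SE 0.08), with edgeR adjusted p = 0.493 without the block and 0.0134 with it.

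Rasgrp1, a diacylglycerol-responsive exchange factor gene, was at 8.94, 0.820 and 15.8 CPM in the Sp9 null replicates and 5.56, 0.458 and 8.77 CPM in the wild type replicates. Its groups overlapped, and replicate 2 was far below the others in both genotypes, as for Rasgef1c and Tbr1. Its log2 fold change was 0.80 (SE 1.198), with edgeR adjusted p = 0.966, and with the block 0.80 (SE 0.22) and adjusted p = 0.0303. Both blocked calls were lost without replicate number 2, without number 3 and by DESeq2 with the block, where adjusted p was 0.273 for Sos2 and 0.528 for Rasgrp1.

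The remaining groups held 0 calls in either fit. Of 6 Ras GTPase genes, Nras was the most abundant, with a log2 fold change of 0.03, and Hras had the largest difference, at -0.16 (SE 0.13). Of 6 Ral exchange factor genes, Ralgds was the most abundant, at -0.12, and Rgl3 had 0.70 (SE 0.46, edgeR adjusted p = 0.897, and 0.190 with the block). Of 10 Ras GTPase-activating protein genes 8 were tested, and Rasa1 was the most abundant, with 0.0006, and Rasa4 had the largest difference, at -0.13 (SE 0.67). Unadjusted p under 0.05 was reached without the block by 0 genes of these 3 groups, and with it by 1, 2 and 0. Of 13 immediate early genes, followed because Rasgef1b is an inducible gene in macrophages, 9 were tested. None was called, with 0 unadjusted p under 0.05 in either edgeR fit and 0 calls by DESeq2 or limma, and the median log2 fold change was -0.008.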

How the data were processed

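RNA was sequenced from 6 MGE samples. The authors deposited, per the file headers, a read count and an FPKM value per gene and library. TopHat, Cufflinks 2.1.1 and GRCm38.p4 appear, without roles, in the submitters' processing notes. For strandedness and the counting program, the sources used here give nothing. FPKM as deposited equalled count over length and library total, within a relative tolerance of 0.001, in 21180 of 21180 genes counted in 2 or more libraries.

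Counts were tested with edgeR 4.0.16 in R 4.3.3 (quasi-likelihood, robust, TMM, default expression filter, two-sided). The fit without the block had genotype as the only term, and the blocked fit had the replicate number and genotype. Both fits were checked on simulated data. Alternatives used DESeq2 1.42.0, and limma 3.58.1 on log2(FPKM + 0.1) or log2(FPKM + 1). Each standard error is the fold change (log2) divided by the root of the F statistic. Deviations from genotype means correlated by 0.336, 0.729 and 0.535 between libraries numbered 1, 2 and 3, all over 0.1, so numbers were taken to pair samples. The pairing comes from the data, and numbers 1 and 3 were not set apart from each other (Sp9 null 3 with wild type 1 gave 0.354, Sp9 null 1 with wild type 3 gave 0.23). The members and lists were chosen with earlier results of these data known. Named genes were the members, pathway genes called in either fit, otherwise the most abundant and most different gene per list, the nearest tested neighbours, and 5 most correlated genes per member. Afdn is listed as Mllt4. Promoter sequences are RefSeq's (GRCm38.p6), with 3 of 3 members matched. Coding sequences are from GENCODE M21, aligned with Biopython 1.88. Counting intervals and floors cover counting error only.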

Additional observations from a re-analysis of the deposited data

How the results depend on the processing

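Rasgef1b was chosen for its difference between genotypes, so its values here describe that difference and are no test of it. The Rasgef1b log2 fold change was positive in all 17 alternatives tried, and lay between 0.93 and 1.09 with each library left out in turn. By limma on log2(FPKM + 1) it was 0.85, on a scale that shrinks differences of low values. That of Rasgef1c was positive in 16 of 17, and between -0.20 and 1.09 with each library left out. Rasgef1a passed no filter, so a log2 fold change, 0.48, could be fitted only without the filter. With each pair left out under the replicate block, Rasgef1b lay between 0.96 and 1.10.

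The count of called genes was 22. It was 65 without the filter, 84 by DESeq2, 38 and 36 by limma with pseudocounts of 0.1 and 1, 597 with the replicate block and 163 by DESeq2 with the block. It ranged from 2 to 34 with each library left out, 126, 219 and 1193 under the replicate block without number 2, 3 and 1, and was 89 without the block and without replicate 2 of both genotypes, an alternative chosen after seeing the data. Rap and Ras pathway calls were 0, 2 with the replicate block, and 0 to 3 under it with each pair left out. Rasgrp1 lay between -0.075 (without Sp9 null replicate 3) and 1.53 on the log2 scale with each library left out. Neighbour calls were 0 in every alternative. The cause of these shifts was not tested. Below about 10 counts per library, as for Rasgef1a, depth limits what can be seen.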
